A study of Ambystoma mexicanum with 49 samples.

Results

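OTX2, OTX1, HESX1, GBX2, ZIC2 and NCAM1, genes of the early vertebrate nervous system, were followed through axolotl development. They were picked by gene name, with earlier results of these data known, and are 6 of the 15631 genes in the deposited tables. All 6 had a symbol in the RefSeq gene table and passed the filter on low counts. The axolotl (Ambystoma mexicanum) is a salamander, and the series asks when its embryonic transcriptome changes and when it is stable. Per the labels, each poly(A) library came from 1 whole embryo, collected without its jelly at 20 °C, and the groups are stages 1, 2, 3, 4, 5, 6, 7, 8, 9, 10, 11, 12, 14, 16, 19, 24 and 40. There were 49 poly(A) libraries, 2 each at stages 1 and 11 and 3 at each other stage, and 5 libraries of total RNA freed of ribosomal RNA, 3 of stage 2 and 2 of stage 1. The labels name no strain, treatment, sex or mutation, and only the stage separates the groups. The stages run through cleavage, the blastula (stages 8 and 9), gastrulation (10 to 12), the open neural plate and its folding (14 to 19) and the tail bud (24) to shortly before hatching (40).

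The neural plate is the sheet of ectoderm that rolls up into the brain and spinal cord. It is divided along the head-to-tail axis by transcription factors. OTX2 and OTX1, relatives of fly orthodenticle, mark and build the forebrain and midbrain; HESX1, a homeobox repressor, marks the most anterior plate and is needed in mammals for forebrain and pituitary. GBX2, a homeobox factor of the anterior hindbrain, and OTX2 repress each other, and the line where they meet becomes the midbrain-hindbrain boundary. ZIC2, a zinc finger factor, acts in neural induction and neural tube closure, and NCAM1 is a cell adhesion molecule that neural tissue puts on its surface in vertebrates.

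Levels are TPM values (abundances per transcript length, on a common total in each library) as the authors deposited them, given as mean ± SD over embryos. Log2 fold changes ± SE come from the deposited estimated counts by the edgeR quasi-likelihood F test over 14437 genes, scaled so that the median gene hardly moves (TMM). A change is called at a Benjamini-Hochberg adjusted p under 0.05, and adjusted p values below are from this test unless another is named. Estimated counts summed to 12.0 to 44.9 M per poly(A) library. Over all tested genes, replicate 3 of stage 2 and both stage 11 libraries correlated least with their stage mates, at r = 0.976 and 0.963, against 0.982 or more in the rest. These are whole embryos, so fewer cells of a type and less RNA per cell cannot be told apart at any stage. Reads may be shared between relatives such as OTX1 and OTX2, ZIC2 and other ZIC genes, GBX1 and GBX2, or NCAM1 and NCAM2.

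The 6 genes did not appear together. ZIC2 and OTX1 were already plentiful during cleavage. OTX2 came up between stages 8 and 10, GBX2 between stages 11 and 12, and NCAM1 between stages 12 and 14. HESX1 increased between stages 2 and 8 and again between stages 11 and 12. Their highest stage means fell at stage 6 for OTX1 (43.8 ± 2.79 TPM) and ZIC2 (124 ± 10.7), at stage 12 for OTX2 (65.4 ± 8.32), at stage 14 for HESX1 (36.8 ± 5.98) and GBX2 (81.5 ± 4.34) and at stage 40 for NCAM1 (35.5 ± 4.46; SD, n = 3 each). By stage 40 the 5 transcription factor genes stood at 0.277% to 7.00% of those peaks. At stage 12 the order of levels per length was ZIC2 at 72.3 ± 8.18, GBX2 at 68.1 ± 19.4, OTX2 at 65.4 ± 8.32, HESX1 at 32.1 ± 7.29, OTX1 at 15.7 ± 2.33 and NCAM1 at 0.965 ± 0.219 TPM. The libraries of the first 3 overlapped in range.

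**Figure D1:**
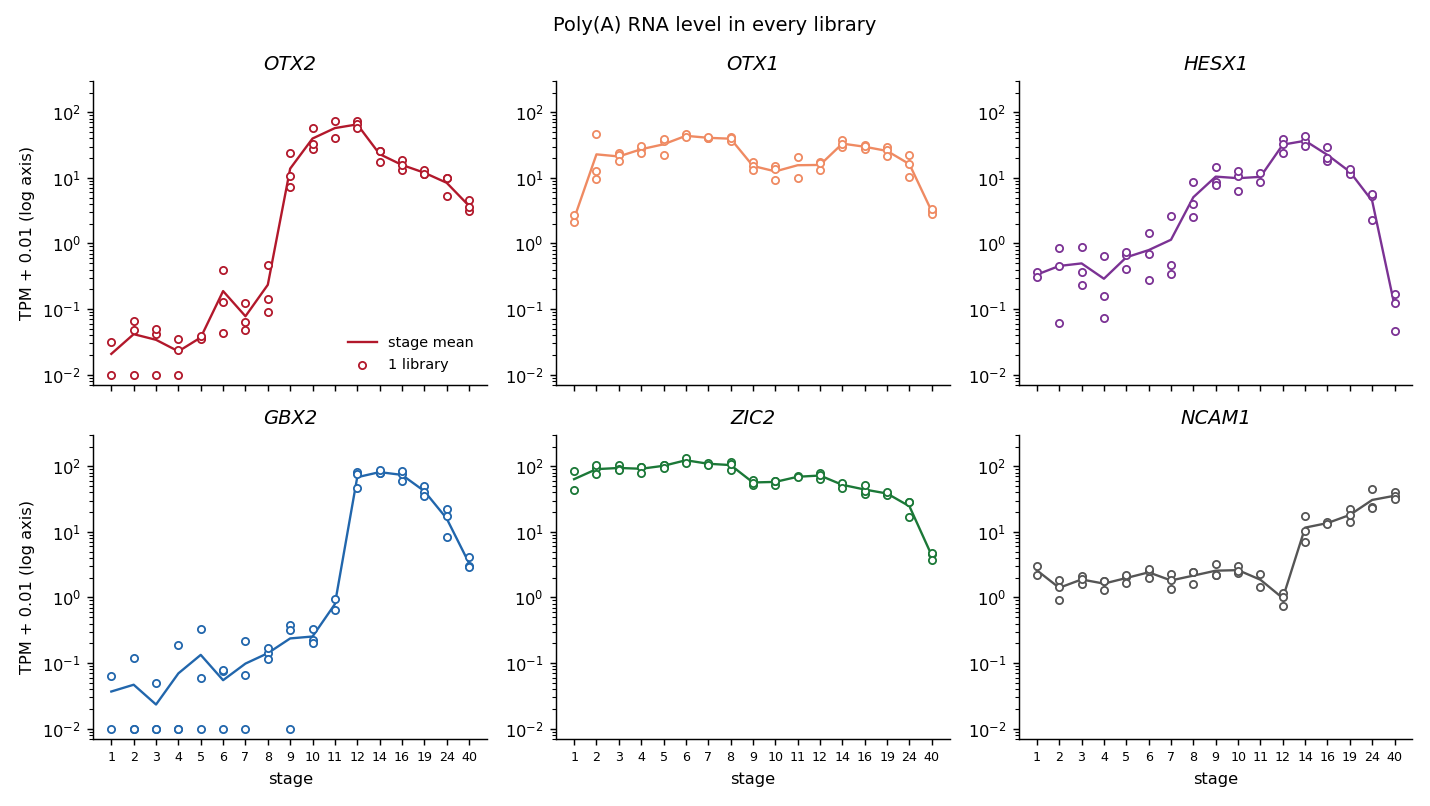
Level of each gene in every poly(A) library (circles) and stage mean (line), as TPM + 0.01 on a log axis, by stage. OTX2 leaves the floor at stage 9 and GBX2 at stage 12. In mean TPM, OTX1 and ZIC2 are highest at stage 6 and low at stage 40. NCAM1 is lowest in mean TPM at stage 12 and highest at stage 40.

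**Figure D2:**
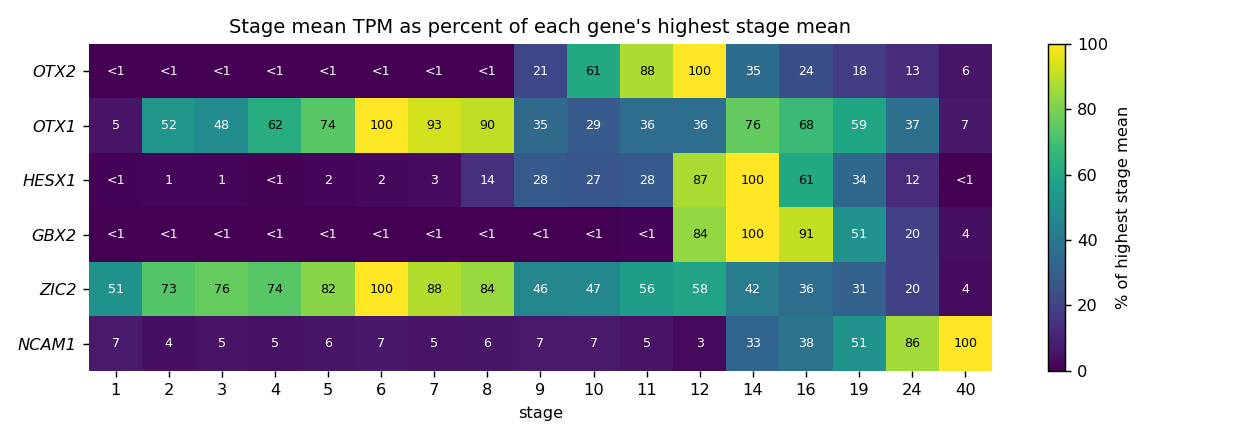
Stage mean TPM as percent of the highest stage mean of the same gene, by stage. OTX1 has a maximum in TPM at stage 6 and another high at 76.0% at stage 14, and GBX2 is at 0.956% at stage 11 and 83.6% at stage 12. In TMM-scaled counts OTX1 is higher at stage 14 than at stage 6, and ZIC2 at stage 12 overlaps ZIC2 at stage 6.

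Ranked by mean TPM from high to low, OTX2 ran over stages 12, 11, 10, 14, 16, 9, 19, 24 and 40 and then the 8 stages up to stage 8. Neighbours in that order overlapped in their libraries, apart from the pairs 10 and 14, 19 and 24, 24 and 40, and 40 and 8. OTX1 ran over stages 6, 7, 8, 14, 5, 16, 4, 19, 2, 3, 24, 12, 11, 9, 10, 40 and 1, and there was no overlap between 10 and 40 and between 40 and 1. HESX1 ran over stages 14, 12, 16, 19, 9, 11, 10, 8 and 24, then the stages 7 to 1 and stage 40 last, with a gap between 16 and 19 alone. GBX2 ran over stages 14, 16, 12, 19, 24, 40, 11 and 10 and then the earlier ones, with gaps between 19 and 24, 24 and 40, 40 and 11, and 11 and 10. ZIC2 ran over stages 6, 7, 8, 5, 3, 4, 2, 12, 11, 1, 10, 9, 14, 16, 19, 24 and 40, with gaps between 6 and 7, 19 and 24, and 24 and 40. NCAM1 ran over stages 40, 24, 19, 16, 14 and 10, then the others within 1.39 to 2.58 TPM and stage 12 last, with gaps between 24 and 19, 19 and 16, and 14 and 10.

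OTX2 was close to silent before stage 9. Over the 20 libraries of stages 1 to 7 it had at most 12 estimated counts and 0.380 TPM, and 4 libraries had 0 counts. The stage 8 embryos held 0.457, 0.134 and 0.0810 TPM, and stage 8 was not called against stage 2 (log2 change 2.42 ± 1.02, adjusted p = 0.052). That change was called at 2.65 without replicate 2 and at 2.77 without replicate 3 of stage 8. With all libraries it was called with library size alone (2.71), by the DESeq2 Wald test (2.28) and by limma on log2(TPM + 0.1) (1.15). At stage 9 the embryos held 23.6, 10.6 and 7.29 TPM, each above every stage 8 embryo. OTX2 rose 56.1-fold at stage 9 against stage 8 (log2 5.81 ± 0.51, adjusted p = 6.38e-11), and the call held without each library in turn, at 5.13 to 7.02.

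OTX2 went on rising through gastrulation. The embryos held 58.6, 27.8 and 33.1 TPM at stage 10, 41.0 and 73.9 at stage 11, and 73.7, 65.5 and 57.1 at stage 12. Stage 10 embryos were all above stage 9 embryos, with a 3.25-fold rise (log2 1.70 ± 0.37, adjusted p = 0.00596). That call was lost without replicate 1 of stage 10, at 1.16, or without replicate 2 of stage 9, at 1.53. Stages 12, 11 and 10 overlapped in range. Stage 12 was called above stage 10 (log2 1.47 ± 0.36, adjusted p = 0.00097), at 1.23 to 1.92 without each library. That call was lost with library size alone (0.65) and limma on log2(TPM + 0.1) (0.78). Stage 12 was not called against stage 11 (0.79 ± 0.41, adjusted p = 0.132). The maximum is thus not placed between stages 11 and 12, and its place against stage 10 rests on the method.

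From the neural plate on OTX2 declined. At stage 14 the embryos held 17.6, 25.5 and 26.01 TPM, all below the stage 12 embryos, and OTX2 fell 2.36-fold (log2 -1.24 ± 0.36, adjusted p = 0.00445; -1.36 to -1.09 without each library). Means were 23.0 ± 4.71, 15.7 ± 2.72, 12.0 ± 0.927, 8.41 ± 2.75 and 3.73 ± 0.736 TPM at stages 14, 16, 19, 24 and 40 (SD, n = 3 each). The single comparisons of stage 19 with 14 (log2 -1.002 ± 0.37, adjusted p = 0.0527) and 24 with 19 (-0.68 ± 0.37, adjusted p = 0.185) were not called. Without replicate 1 of stage 14 the first was called, at -1.15. It was also called by limma on log2(TPM + 1) (-0.87) and in the fit of these 2 stages alone (-0.94). Stage 40 was called against stage 24, at -1.41 ± 0.38 (adjusted p = 0.00128), with no overlap of embryos.

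OTX1, the other orthodenticle relative, had 2 periods of high level in TPM with a trough during gastrulation. Its stage 2 embryos held 12.7, 9.52 and 46.3 TPM, against 2.08 and 2.67 TPM in stage 1 embryos. The rise was 9.24-fold (log2 3.21 ± 0.40, adjusted p = 1.23e-07), and without replicate 3 of stage 2, the embryo at 46.3 TPM, it was 2.29 and still called. The stage means then were 21.2 ± 3.13, 27.3 ± 3.20, 32.5 ± 8.61, 43.8 ± 2.79, 40.8 ± 0.925 and 39.6 ± 2.97 TPM at stages 3 to 8 (SD, n = 3 each). Stage 8 was not called against stage 2 with all libraries (log2 0.49 ± 0.30, adjusted p = 0.19) but was called at 1.41 without replicate 3 of stage 2.

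In the interval in which OTX2 first rose, OTX1 fell. The stage 9 embryos held 17.4, 15.1 and 13.1 TPM of OTX1, against 36.4, 42.2 and 40.1 TPM in the stage 8 embryos, a 2.56-fold fall (log2 -1.36 ± 0.31, adjusted p = 0.00109). The groups did not overlap, and the value was -1.49 to -1.26 without each library. The trough in TPM held levels of 9.14, 15.0 and 13.5 at stage 10 and 21.1 and 10.1 at stage 11. In TPM stage 12, at 17.4, 13.1 and 16.8, belonged to it. In TMM-scaled counts stage 12 embryos held 51.4, 35.9 and 47.2 CPM, all above stage 10 embryos at 16.7, 23.1 and 21.1 CPM. They were below the 52.3 to 62.1 CPM of stage 8. On that scale OTX1 was thus already rising by stage 12. At stage 14 the embryos held 38.1, 29.4 and 32.5 TPM, above all stage 12 embryos, and OTX1 rose 2.56-fold (log2 1.36 ± 0.31, adjusted p = 0.000303). OTX1 and OTX2 were called in opposite directions at stage 9 against 8 and at stage 14 against 12, and in the same direction at stage 12 against 10 (both higher) and at stage 40 against 24 (both lower). The OTX1 call at stage 12 against 10 (log2 1.14 ± 0.31, adjusted p = 0.00214) came with overlap of embryos in TPM. It was lost with library size alone (0.26) and by limma on log2(TPM + 1) (0.32) and log2(TPM + 0.1) (0.34).

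OTX1 then declined late. Its stage 24 embryos held 10.1, 22.4 and 16.0 TPM, against 29.4, 26.2 and 21.7 TPM at stage 19, with overlap (log2 -0.83 ± 0.30, adjusted p = 0.0424). Of the 6 libraries, only the omission of stage 24 replicate 2 left it called; omitting any other gave -0.93 to -0.58. It was also lost under 6 of the 8 other settings, at -0.77 to -0.63, and held without the filter and with the replicate block. At stage 40 the embryos held 3.06, 2.84 and 3.30 TPM, a 6.23-fold fall against stage 24 (log2 -2.64 ± 0.32, adjusted p = 6.35e-09).

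HESX1 came up in 2 steps, the first placed only between stages 2 and 8. It stood between 0.0519 and 2.59 TPM in the 20 libraries of stages 1 to 7, with at most 54 estimated counts. Stage 8 embryos held 8.62, 4.05 and 2.52 TPM, against 0.442, 0.0519 and 0.836 TPM in stage 2 embryos, a 9.58-fold rise (log2 3.26 ± 0.64, adjusted p = 0.000104). The groups did not overlap, and the call held without each library, at 2.63 to 3.89. Stage 8 was not called against stage 7 (log2 2.15 ± 0.55, adjusted p = 0.135). Stage 7 embryos held 0.331, 0.462 and 2.59 TPM and overlapped those of stage 8. Replicate 1 of stage 8, the highest for HESX1, was also the highest of its stage for MIXL1 (18.2 TPM, against 8.43 and 4.29 in the other two) and NANOG (82.0, against 24.8 and 14.5). These 2 genes are early zygotic factors that were at 219 to 363 and 527 to 541 TPM at stage 9, and their part in the HESX1 value was not tested.

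Between stages 9 and 11 HESX1 stayed between 6.40 and 14.8 TPM in the 8 libraries. Stage 9 was not called against stage 8 (log2 1.02 ± 0.49, adjusted p = 0.193). It was called higher without replicate 1 of stage 8, at 1.66, and by limma on log2(TPM + 1) with all libraries (0.99). The second step was at stage 12, where embryos held 38.8, 24.3 and 33.2 TPM, against 6.40, 10.6 and 12.6 TPM at stage 10, a 5.77-fold rise (log2 2.53 ± 0.50, adjusted p = 5.63e-05). It lay between stages 11 and 12: stage 11 embryos held 12.0 and 8.73 TPM, and stage 12 was 5.01-fold higher (log2 2.32 ± 0.58, adjusted p = 0.00136). Stage 14 embryos, at 36.8, 42.8 and 30.8 TPM, overlapped those of stage 12 and were not called (log2 0.46 ± 0.47, adjusted p = 0.432).

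After the open plate HESX1 was called lower in each of the 3 later comparisons. Stage 19 embryos held 12.2, 11.4 and 13.6 TPM, all below the stage 14 embryos (log2 -1.62 ± 0.49, adjusted p = 0.0166; not called without replicate 1 of stage 19, at -1.63, or replicate 2, at -1.54). Stage 24 embryos held 5.34, 5.67 and 2.28 TPM, all below those of stage 19 (log2 -1.64 ± 0.50, adjusted p = 0.0152; not called without replicate 3 of stage 24, at -1.28). At stage 40 only 6, 1 and 5 estimated counts were left, 0.159, 0.0360 and 0.111 TPM. The fall against stage 24 was 46.9-fold (log2 -5.55 ± 0.70, adjusted p = 1.20e-08), a ratio that rests on those few counts.

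GBX2 had the steepest rise. In the 31 libraries of stages 1 to 11 it had at most 27 estimated counts and 0.930 TPM, and 11 libraries had 0 counts. Stage 11 embryos held 0.629 and 0.930 TPM and stage 10 embryos 0.318, 0.218 and 0.194 TPM, a step that was not called (log2 1.79 ± 0.66, adjusted p = 0.806) although the groups did not overlap. Stage 12 embryos held 82.1, 46.0 and 76.3 TPM. Against stage 11 GBX2 rose 135-fold (log2 7.07 ± 0.56, adjusted p = 7.62e-12), and against stage 10 the rise was 467-fold (8.87 ± 0.53, adjusted p = 1.12e-15; 8.68 to 9.14 without each library). On the log2(TPM + 1) scale, which understates changes of low genes, limma gave 5.76 for stage 12 against stage 10, and it was called.

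GBX2 kept a plateau over the neural plate stages. Embryos held 80.2, 78.0 and 86.3 TPM at stage 14 and 60.5, 77.6 and 83.6 at stage 16, and stages 12, 14 and 16 overlapped. Stage 19 embryos, at 49.5, 40.4 and 35.7 TPM, were all below stage 14 embryos (log2 -1.02 ± 0.34, adjusted p = 0.0325). Leaving out stage 14 replicate 1 (-1.01) or 3 (-0.95), or stage 19 replicate 2 (-0.97) or 3 (-0.93), lost that call, as did 4 of the 8 other settings, at -0.97 to -0.89. Stage 24 embryos held 21.9, 17.6 and 8.41 TPM, all below those of stage 19 (log2 -1.53 ± 0.35, adjusted p = 0.00132). Stage 40 embryos held 4.11, 2.99 and 2.88 TPM, again all below those of stage 24 (log2 -2.53 ± 0.37, adjusted p = 2.21e-07).

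OTX2 was also set against GBX2, OTX1 and HESX1 within each embryo. Ratios of TPM within an embryo do not depend on the scaling between libraries, and were taken where both genes had 10 or more estimated counts. OTX2 exceeded GBX2 23.8-fold and 63.2-fold in the 2 measurable stage 9 embryos, 184-fold in 1 of stage 10, and 65.2-fold and 79.4-fold at stage 11. At stage 12 the ratio was 0.748 to 1.42, at stage 14 0.220 to 0.327, at stage 16 0.186 to 0.239 and at stage 19 0.231 to 0.323. It spread from 0.238 to 1.18 at stage 24 and was 1.04 to 1.23 at stage 40.

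The ratio of OTX2 to OTX1 was 0.463 to 0.867 in stage 14 embryos, against 3.41 to 5.01 in stage 12 embryos. The mean log2 ratio was -0.55 at stage 14 and 2.06 at stage 12, a difference of -2.60 with an exact two-sided permutation p = 0.1, the smallest that 3 embryos against 3 allow. OTX2 to HESX1 was 0.478 to 0.844 at stage 14, against 1.72 to 2.69 at stage 12 (difference -1.73, exact permutation p = 0.1, the smallest possible). OTX2 to GBX2 differed by -1.82 between the same stages (exact permutation p = 0.1), and groups did not overlap in any of these 3 ratios. Of the 10 ratio comparisons made, none could reach an exact permutation p below 0.1. At stage 12 against stage 11, OTX2 to GBX2 differed by -6.19 and OTX2 to HESX1 by -1.38 (exact permutation p = 0.1 each), and OTX2 to OTX1 by 0.14 (exact permutation p = 0.8). At stage 12 against stage 10, OTX2 to OTX1 differed by 0.44 (exact permutation p = 0.5) and OTX2 to HESX1 by -0.95 (exact permutation p = 0.3). OTX2 to GBX2 differed by 1.05 at stage 40 against stage 24 (exact permutation p = 0.3). At stage 40 OTX2 and OTX1 stood at ratios of 1.07 to 1.49, against 0.452 to 0.616 at stage 24, also with no overlap (difference 1.20, exact permutation p = 0.1).

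**Figure D3:**
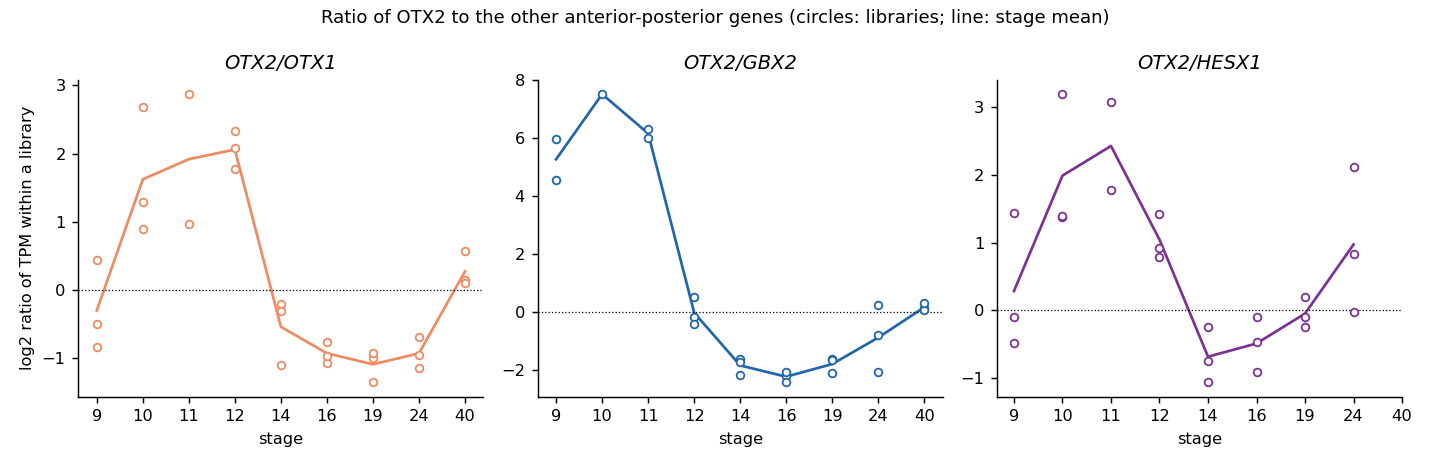
Log2 ratio of OTX2 to OTX1, GBX2 and HESX1 within each poly(A) library, from stage 9 on; circles are libraries with 10 or more estimated counts of both genes, the line joins stage means and the dotted line marks equal TPM. All 3 ratios lie lower at stage 14 than at stage 12, and OTX2 to GBX2 is at most 1.42 at stage 12, against 65.2 or more at stage 11.

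ZIC2 had the highest TPM of the 6 in every library up to stage 9 and was present at stage 1. Stage 2 embryos held 92.6, 75.6 and 103 TPM, against 83.9 and 43.4 TPM in stage 1 embryos, with overlap. This was called at log2 0.50 ± 0.19 (adjusted p = 0.0453), but it was 0.09 and not called without replicate 2 of stage 1, the embryo at 43.4 TPM, and also lost without replicate 1 (0.43) or 3 (0.46) of stage 2. The DESeq2 Wald test (0.38), scaling by library size alone (0.41) or by DESeq2 size factors (0.38), the fit of these 2 stages alone (0.43) and the replicate block (0.50) lost it too. Levels reached 122, 135 and 114 TPM at stage 6. Like OTX1, ZIC2 fell at stage 9: the embryos held 51.8, 61.9 and 56.3 TPM, against 88.2, 115 and 110 TPM at stage 8, with no overlap (1.82-fold, log2 -0.87 ± 0.17, adjusted p = 0.000262).

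A further gain of ZIC2 came with the end of gastrulation. Stage 12 embryos held 80.4, 64.0 and 72.6 TPM, against 52.2, 60.6 and 60.6 TPM at stage 10. Relative to the median gene ZIC2 rose 2.18-fold (log2 1.13 ± 0.17, adjusted p = 1.08e-06). That call was lost with library size alone (0.26) and by limma on log2(TPM + 1) and log2(TPM + 0.1) (0.32 each). Later levels ran through 52.1 ± 4.44, 44.2 ± 7.25, 38.4 ± 2.20, 24.6 ± 6.56 and 4.33 ± 0.521 TPM at stages 14, 16, 19, 24 and 40 (SD, n = 3 each). Stage 14 was not called against stage 12 (log2 -0.20 ± 0.17, adjusted p = 0.34), although the embryos did not overlap in TPM. It was called lower with library size alone (-0.47) and by limma on log2(TPM + 1) (-0.46) and log2(TPM + 0.1) (-0.47). Stage 24 was below stage 19 (log2 -0.82 ± 0.18, adjusted p = 0.000726) and stage 40 below stage 24 (-2.74 ± 0.19, adjusted p = 3.61e-15), with no overlap in either. The call of stage 19 against stage 14 (-0.50 ± 0.17, adjusted p = 0.0421) was lost without any 1 of the 6 libraries, at -0.55 to -0.44, and under 5 of the 8 other settings, at -0.44 to -0.37.

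NCAM1, the adhesion molecule, was low until the plate had formed. In all 31 libraries of stages 1 to 11 it stood between 0.910 and 3.23 TPM. Its stage 2 embryos held 1.81, 0.910 and 1.45 TPM, against 2.17 and 2.99 TPM in stage 1 embryos (log2 -0.87 ± 0.32, adjusted p = 0.0312). Leaving out stage 1 replicate 2 (-0.64), stage 2 replicate 2 (-0.64) or stage 2 replicate 3 (-0.84) lost that call, as did limma on log2(TPM + 1) (-0.59) and the fit of these 2 stages alone (-0.96). Its lowest mean TPM was at stage 12, with 1.16, 0.726 and 1.01 TPM, below all stage 10 embryos at 2.34, 2.97 and 2.48 TPM. The difference from stage 10 was not called (log2 -0.61 ± 0.29, adjusted p = 0.0818). It was called lower with library size alone (-1.48) and by limma on log2(TPM + 1) (-0.87) and log2(TPM + 0.1) (-1.36).

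Stage 14 embryos held 10.4, 17.4 and 7.01 TPM of NCAM1, all above the stage 12 embryos. NCAM1 rose 14.2-fold there (log2 3.83 ± 0.30, adjusted p = 5.60e-13; 3.48 to 4.07 without each library). It stood at 13.7, 14.1 and 13.04 TPM at stage 16, 14.2, 22.4 and 17.8 at stage 19, 23.7, 23.2 and 45.0 at stage 24 and 40.3, 34.8 and 31.5 at stage 40. No later comparison of neighbouring main stages was called: stage 19 against 14 was 0.59 ± 0.26 (adjusted p = 0.113), stage 24 against 19 was 0.57 ± 0.26 (0.104) and stage 40 against 24 was -0.003 ± 0.26 (0.994). The first of these was called at 0.95 without replicate 2 of stage 14. It was also called by the DESeq2 Wald test (0.71) and limma on log2(TPM + 1) (0.66). Stage 24 against 19 was called with library size alone (0.80) and by limma on log2(TPM + 1) (0.68). All stage 24 embryos were above those of stage 19. Stage 40 thus differed from stage 24 in the other 5 genes by a call, and not in NCAM1.

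**Figure D4:**
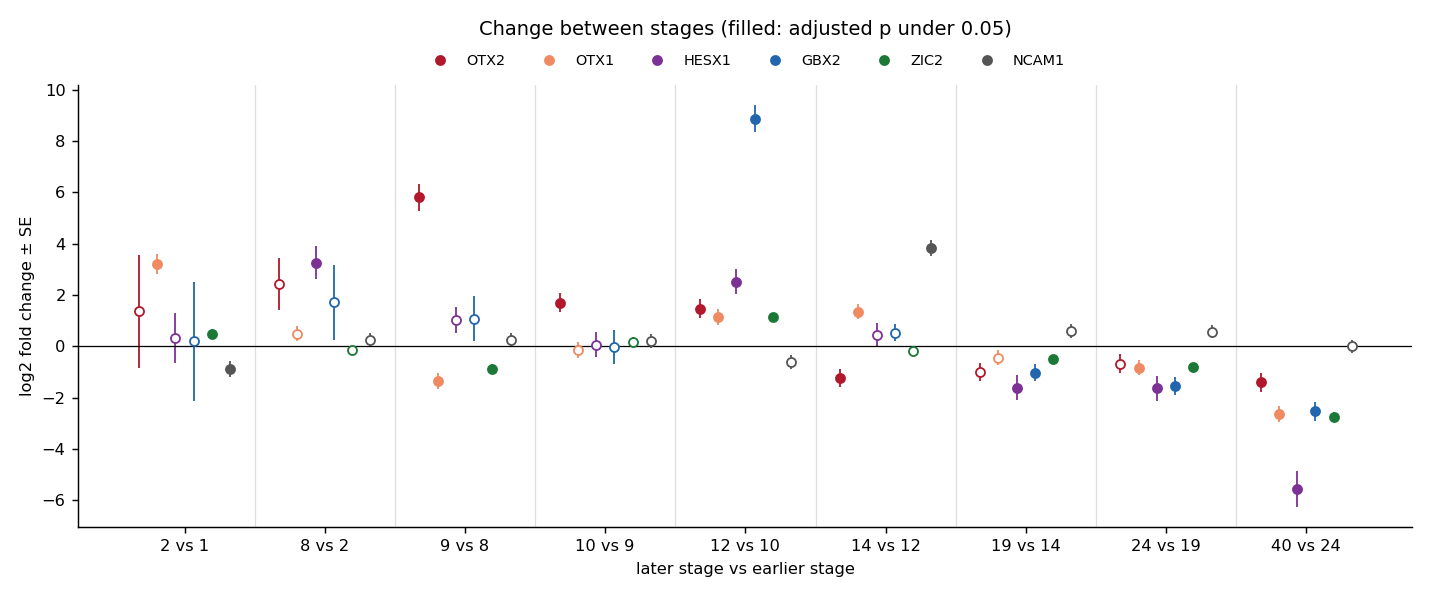
Log2 fold change ± SE of each gene in the 9 comparisons of the later with the earlier stage, from edgeR. Filled points have an adjusted p under 0.05; the highest is GBX2 at stage 12 against 10 (8.87) and the lowest HESX1 at stage 40 against 24 (-5.55).

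In the counts by interval that follow, shares of all genes are given as a setting only. The 6 genes were chosen with earlier results of these data known. OTX2, GBX2 and HESX1, near 0 at early stages, can pass the low-count filter through later ones. Member counts therefore cannot be weighed against those shares. Counted by interval, stage 2 against stage 1 had 2 of the 6 genes higher (OTX1, ZIC2) and 1 lower (NCAM1), where 21.6% and 11.1% of all tested genes were higher and lower (32.7% in all). The stage 1 libraries also held 370 and 820 TPM of 15 markers of late tissues, against 24.8, 180 and 47.9 TPM in stage 2 libraries. All 15 were detected in both stage 1 libraries, 12 of 15 were lower at stage 2 and 0 higher, and the sums were 0.607% and 1.35% of the stage 40 level. NCAM1, itself a gene of late stages, moved in the same direction, and the part of this signal in its change was not tested. For stage 8 against stage 2, 1 gene was higher (HESX1) and 0 lower, where 24.9% and 18.9% of all genes were (43.9% in all). Over the 6 steps between stages 2 and 8, edgeR called 0 of 36 member tests, where 0.0716% of all tests were called. Of all genes, 0.00% were called at stage 3 against 2 and at stage 4 against 3, and 0.0139% at stage 5 against 4, all higher. At stage 6 against 5, 0.132% were higher and 0.132% lower (0.263% in all), and at stage 7 against 6, 0.0277% and 0.0139% (0.0416%). At stage 8 against 7, 0.0900% were higher and 0.0208% lower (0.111%). Of the members' 36 tests 2 had an unadjusted p under 0.05, where 2.45% to 18.04% of all genes had one over these steps and 3.82% at stage 8 against 7. They were OTX2 and HESX1 at stage 8 against 7, and limma on log2(TPM + 1) called 1, HESX1 in that step.

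Stage 9 against stage 8 had 1 gene higher (OTX2) and 2 lower (OTX1, ZIC2), where 4.02% and 11.8% of all genes were (15.8% in all). Stage 10 against stage 9 had OTX2 higher and 0 lower, where 1.83% and 1.89% were (3.72%). Stage 12 against stage 10 had 5 higher (GBX2, HESX1, OTX2, OTX1, ZIC2) and 0 lower, where 20.3% and 24.3% were (44.6%). The scaling matters in this interval: scaled by library size alone, the log2 changes of all genes had a median of -0.83. OTX2, OTX1 and ZIC2 were then at 0.65, 0.26 and 0.26 and not called, and NCAM1 was called lower at -1.48. GBX2 and HESX1 were called under every alternative tried in this interval. Within it, stage 12 against stage 11 had 3 higher (GBX2, HESX1, ZIC2) and 0 lower, where 16.3% and 21.0% were (37.3%). ZIC2 was not called there with library size alone (0.01), by either limma fit (0.06 each) or without replicate 2 of stage 11 (0.57). OTX2 was called in that step without replicate 3 of stage 11 (1.54). Stage 11 against stage 10 had 0 of 6 called by edgeR, 2 at an unadjusted p under 0.05, where 0.0554% of all genes were called, all higher, and 5.20% had such an unadjusted p.

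Stage 14 against stage 12 had 2 higher (NCAM1, OTX1) and 1 lower (OTX2), where 27.4% and 24.9% were (52.3%). Stage 19 against stage 14 had 0 higher and 3 lower (HESX1, GBX2, ZIC2), where 6.73% and 11.0% were (17.8%). Neither step within that interval had a member called by edgeR. At stage 16 against 14, 0.194% of all genes were higher and 0.249% lower (0.443%), and 0 members had an unadjusted p under 0.05, where 9.14% of all genes had one. At stage 19 against 16, 1.25% were higher and 1.86% lower (3.11%), and 1 member, GBX2 at -0.89 ± 0.34, had an unadjusted p under 0.05, where 17.9% of all genes had one, and was called by limma on log2(TPM + 1). Stage 24 against stage 19 had 0 higher and 4 lower (GBX2, HESX1, ZIC2, OTX1), where 11.0% and 13.1% were (24.1%). Stage 40 against stage 24 had 0 higher and 5 lower, every transcription factor gene of the 6, where 37.7% and 30.9% were (68.6%). Over the whole span, stage 40 against stage 12, a comparison chosen after the data were seen, the 5 fell and NCAM1 rose 31.8-fold (log2 4.99 ± 0.31), where 46.2% of all genes were higher and 35.6% lower (81.8%; median log2 0.31). HESX1 fell 328-fold there, GBX2 23.5-fold, OTX2 20.0-fold, ZIC2 19.1-fold and OTX1 5.84-fold. The HESX1 ratio rests on 6, 1 and 5 estimated counts at stage 40, and its log2 change ran from -8.36 to -4.89 under the other settings.

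Total RNA of stages 2 and 1 gave the same genes in libraries made without poly(A) selection. OTX1 had 12.7, 6.42 and 8.97 TPM in stage 2 libraries, against 5.80 and 7.02 TPM in stage 1 libraries, with overlap and no call (log2 0.51 ± 0.24, adjusted p = 0.295). Without replicate 2 of stage 2 it was called, at 0.70. ZIC2 had 30.2, 19.7 and 21.8 TPM in stage 2 libraries, against 25.5 and 26.5 TPM in stage 1 libraries (log2 -0.16 ± 0.15, adjusted p = 0.617). NCAM1 had 0.790, 1.01 and 0.516 TPM, against 0.739 and 1.29 TPM (-0.43 ± 0.40, adjusted p = 0.619). So edgeR called 0 of the 3 tested members, with 0 at an unadjusted p under 0.05, where 1.44% of 11419 tested genes were higher and 0.543% lower (1.99% in all). HESX1 had 4, 0 and 0 counts at stage 2, against 7 and 5 at stage 1, and OTX2 and GBX2 had 0 counts in all 5 libraries, which allows up to 0.118 to 0.173 CPM in a library (3 counts, counting error only). The difference between the 2 kinds of library was not tested, since the tables were scaled apart.

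**Figure D5:**
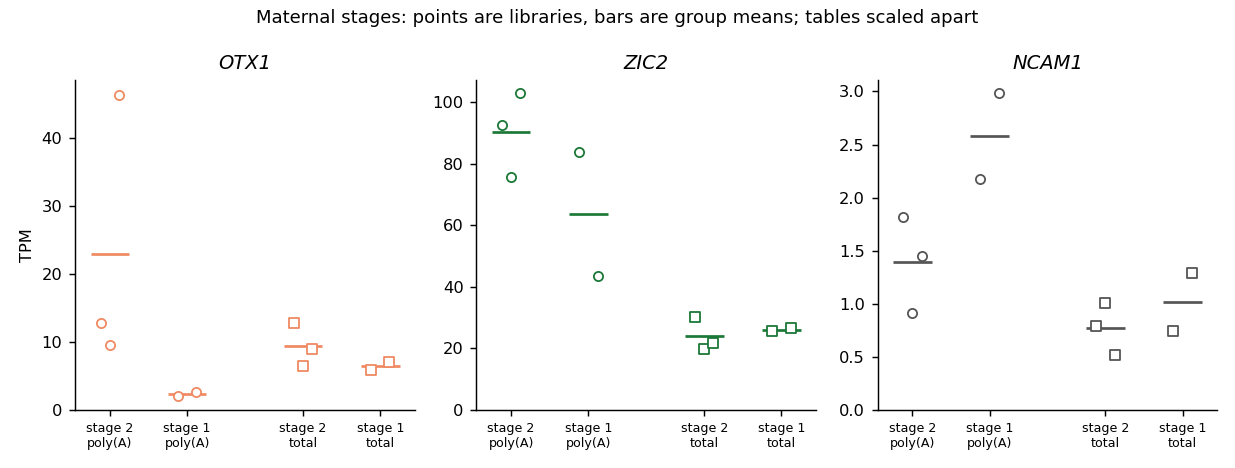
TPM of OTX1, ZIC2 and NCAM1 in stage 2 and stage 1 libraries of poly(A) RNA (circles) and total RNA (squares), with group means as bars; the tables were scaled apart. OTX1 stands at 9.52 to 46.3 TPM at stage 2 against 2.08 to 2.67 at stage 1 in poly(A) RNA, and the groups overlap in total RNA.

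Other genes of the same territories gave the setting. None of the 6 is in the lists that follow. A listed gene near 0 at the earlier stage can pass the low-count filter through the stages where it is high. The list counts therefore cannot be weighed against the shares of all genes. Those shares come from the main fit and are given as a setting only. Of 14 genes of the anterior plate and forebrain, 13 were tested. At stage 9 against stage 8, 4 of the 13 rose and 0 fell (2 to 4 rose without single libraries), where 4.02% of all genes were higher and 11.8% lower. LHX5, a forebrain homeobox gene, was among them, with 30.4 ± 9.96 TPM at stage 9, against 0.810 ± 0.771 at stage 8 (log2 5.11 ± 0.51). At stage 12 against stage 10, 4 of the 13 rose and 1 fell (median log2 0.12), or 4 rose and 2 fell with library size alone (median -0.72), where 20.3% of all genes were higher and 24.3% lower. SIX3, a factor of forebrain and eye, was among the 4 (15.0 ± 3.86 TPM at stage 12 against 0.0365 ± 0.0633 TPM at stage 10). At stage 14 against stage 12, 8 of 13 rose and 1 fell (median log2 2.99, all genes 0.00), where 27.4% of all genes were higher and 24.9% lower, with RAX, the eye field gene, at 36.8 ± 12.6 TPM at stage 14 against 0.181 ± 0.233 at stage 12 (log2 8.22 ± 0.68). OTX2 fell in that interval and OTX1 rose.

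Around the midbrain-hindbrain boundary, 8 of 10 genes rose at stage 14 against stage 12 and 0 fell (median log2 4.53, all genes 0.00). Of all genes, 27.4% were higher and 24.9% lower. EN2, an engrailed gene of the boundary, had 7.90 ± 1.57 TPM at stage 14, against 0.0105 ± 0.0182 at stage 12, and LMX1B had 38.6 ± 3.71 against 0.525 ± 0.168 TPM (log2 6.37 ± 0.48). FGF8, a signal of the later boundary, rose in the whole blastula at stage 9 against stage 8 (39.0 ± 11.1 against 0.924 ± 1.13 TPM). In that comparison 2 of the 10 rose and 3 fell (median log2 -0.57), where 4.02% of all genes were higher and 11.8% lower. At stage 12 against stage 10, where GBX2 and OTX2 rose, 2 of the 10 rose and 2 fell, or 1 rose and 5 fell with library size alone. Of 13 tested hindbrain and posterior genes, 7 rose and 1 fell at stage 12 against stage 10 (median log2 2.08), where 20.3% and 24.3% of all genes were higher and lower. At stage 14 against stage 12, 9 rose and 0 fell (median 2.12), or 7 rose with library size alone, where 27.4% and 24.9% of all genes were higher and lower. CDX1, a posterior homeobox gene, had 106 ± 30.7 TPM at stage 12, against 0.726 ± 0.208 at stage 10 (log2 7.98 ± 0.38), in the interval of the GBX2 rise.

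Of 11 border genes 9 rose and 1 fell at stage 12 against stage 10 (median log2 3.402), where 20.3% of all genes were higher and 24.3% lower, with FOXI1 at 59.2 ± 19.5 against 0.152 ± 0.0531 TPM and TFAP2A at 48.2 ± 9.01 against 2.32 ± 0.730 TPM. Among 13 tested secreted inducers and caudalising signals, 8 rose and 0 fell at stage 9 against stage 8 (median log2 1.58), where 4.02% and 11.8% of all genes were higher and lower. At stage 12 against stage 10, 9 rose and 2 fell (median 2.14), or 7 rose and 2 fell with library size alone. CHRD, the BMP inhibitor chordin, had 160 ± 75.2 TPM at stage 9, against 4.55 ± 5.63 at stage 8, in the interval of the OTX2 rise. Of 11 tested early pan-neural factors, 6 rose and 2 fell at stage 12 against stage 10, but 3 rose and 2 fell with library size alone.

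Of 18 genes of neuronal adhesion and differentiation, 9 rose and 1 fell at stage 14 against stage 12 (median log2 1.41; 7 rose and 1 fell with library size alone), where 27.4% of all genes were higher and 24.9% lower, with GAP43, a growth cone protein, at 24.1 ± 7.89 TPM at stage 14 against 0.297 ± 0.184 at stage 12. At stage 40 against stage 24, 13 rose and 2 fell (median 2.40, all genes 0.12), where 37.7% of all genes were higher and 30.9% lower, while NCAM1 was not called. SNAP25, a synaptic protein, had 74.5 ± 8.82 TPM at stage 40, against 0.620 ± 0.239 at stage 24 (log2 6.64 ± 0.42). NCAM1 is also made by embryonic muscle in vertebrates, and 11 muscle genes summed to 195 to 220 TPM at stage 14, against 186 to 219 TPM at stage 12. At stage 24 they summed to 605 to 1485 TPM and at stage 40 to 41180 to 54498 TPM, and their part in the NCAM1 level was not tested at any stage.

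Stage 40 against stage 24, where the 5 factors fell, had 30.9% of all genes lower and 37.7% higher. In that comparison 8 of 13 anterior genes fell and 0 rose, 7 of 10 boundary genes fell and 0 rose, 9 of 13 posterior genes fell and 0 rose, and 9 of 11 border genes fell and 0 rose; medians ran from -1.81 to -1.61, and all genes were at 0.12. With library size alone 6, 6, 5 and 8 of these fell, and 1 anterior gene rose. All genes then had a median of 0.54, and no share of all genes is given for that scaling. EMX1, a gene of the dorsal forebrain, had 3.45 ± 0.431 TPM at stage 40, against 21.8 ± 4.40 at stage 24 (log2 -2.91 ± 0.41). Of 12 retina and lens genes, among which OTX2 has known targets in vertebrates, 10 were tested. They went the other way, with 9 higher and 1 lower (median 6.03, 6 to 8 higher without single libraries). Of the 12, 5 had a mean of 0 TPM at stage 24, against 1 at stage 40. A gene high at stage 40 alone can pass the low-count filter through that stage. This share therefore cannot be set against that of all genes. The 12 summed to 413 to 573 TPM at stage 40, against 11.0 to 22.1 TPM at stage 24. Of 7 tested pituitary genes, 2 rose, 0 fell and 5 were not called (1 to 2 rose without single libraries). The whole list of 11 summed to 31.2 to 48.9 TPM at stage 40, against 17.2 to 22.7 TPM at stage 24, while HESX1 was near 0.

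Genes with the most similar course over the 17 stages were ranked by Pearson r of stage means of log2(TPM + 1), among 12690 genes; stages share the same libraries and no test applies. FOXI2 (r = 0.989), CASS4 (0.988) and PDZRN3 (0.987) were closest to OTX2, and TRIM8 (0.976), ATXN7L2 (0.941) and ZSWIM6 (0.913) to OTX1. HES7 (0.959), SOX17 (0.954) and SP5 (0.953) were closest to HESX1, and SLC37A1 (0.997), SLC34A2 (0.988) and CDX1 (0.987) to GBX2. CCNJ (0.981), ZMIZ2 (0.973) and TCP11 (0.963) were closest to ZIC2, and NES (0.991), the intermediate filament nestin of neural progenitors, and FBLN1 (0.990) were close to NCAM1. Among the 6 themselves OTX2 and HESX1 had the highest r, 0.866, ahead of HESX1 and GBX2 at 0.747, and ZIC2 and NCAM1 the lowest, -0.838. OTX2 and OTX1 stood at -0.12. Of the 18 neighbours that the rule gave, 15 were again chosen with a pseudocount of 0.1, but 4 with Spearman ranks.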

How the data were processed

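Poly(A) RNA of 49 single axolotl embryos and total RNA of 5 libraries were analysed. Per the labels' protocols, sequencing was paired-end with 101 bases for poly(A) libraries and single-end with 65 bases for total RNA depleted of ribosomal RNA. The authors deposited tables of estimated counts (expected counts per gene, not normalized) and of TPM; the submitters' processing notes list RSEM 1.1.6 and Bowtie 0.12.1. The sources used here give neither the reference nor the embryos behind the total RNA.

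Estimated counts were rounded and fitted with edgeR 4.0.16 in R 4.3.3 (filterByExpr by stage, TMM, all 17 stages together, quasi-likelihood F test, Benjamini-Hochberg over 14437 of 15631 genes, threshold 0.05); total RNA was fitted apart. The common dispersion was 0.0429. The SE is the size of the log2 change over the square root of F. Poly(A) depth was 12.0 to 44.9 M estimated counts and total RNA depth 17.4 to 25.5 M. The tests were repeated without the low-count filter, with scaling by library size alone or by DESeq2 1.42.0 size factors, with the DESeq2 Wald test, with limma 3.58.1 on log2(TPM + 1) and log2(TPM + 0.1) for genes at a mean of 0.5 TPM or more, on the 2 compared stages by themselves, with replicate number as a blocking term, and with single libraries omitted, each in turn.

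The 6 genes and the 12 gene lists were chosen with earlier results of these data known. Genes named besides the 6 are the 3 most similar in course to each, among tested genes with a stage mean of 5 TPM or more and a symbol other than a LOC name. A single one of these genes is not reported here. From the 7 neural lists up to 2 called genes with the largest change per comparison could be named, with 1 TPM or more and no overlap of libraries. Of these the text uses only some whose call held under every alternative; this last choice was made after seeing the data. MIXL1 and NANOG were added after their values were seen. The fit was tested on simulated data.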

Additional observations from a re-analysis of the deposited data

How the results depend on the processing

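No result of the 6 genes turned round under an alternative. Over the 9 comparisons, the 4 single steps outside cleavage and the added span there were 1152 alternative values, of which 63 lost a call and 29 gained one; a further 32 had another sign without a call in either. Fitting only the 2 stages left 1 member called at stage 2 against 1 and 0 at stage 10 against 9. At stage 8 against 2, library size alone, the DESeq2 Wald test and limma on log2(TPM + 1) called 2 and limma on log2(TPM + 0.1) called 3. Library size alone and limma on log2(TPM + 0.1) called 3 at stage 12 against 10. At stage 19 against 14, DESeq2 size factors and library size alone called 1 and limma on log2(TPM + 0.1) called 0; at stage 24 against 19 the last called 2. Each library left out in turn gave 1 to 3 called members at stage 2 against 1, 1 to 2 at stage 8 against 2, 3 to 4 at stage 9 against 8, 0 to 1 at stage 10 against 9, 5 at stage 12 against 10, 3 at stage 14 against 12, 0 to 3 at stage 19 against 14, 2 to 4 at stage 24 against 19, 5 at stage 40 against 24, 2 to 4 over the single steps and cleavage, and 0 to 1 in total RNA. Why these counts moved was not tested.

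With the replicate block, ZIC2 at stage 2 against 1 was 0.50 and not called (adjusted p = 0.0522), and no other member call changed. Deviations of same-numbered embryos of neighbouring stages correlated at a median r of 0.023 (-0.249 to 0.427, 45 pairs, 8 over 0.1). Embryos of other numbers were at a median of -0.009 (90 pairs). These medians show no general pairing by number, and links at single stages were not tested. Low counts limit OTX2 before stage 9, GBX2 before stage 12 and HESX1 at stage 40.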
